A study of Homo sapiens with 12 samples.

Results

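The genes described here are 7 transcription factor genes of the AP-1 and immediate-early kind, FOS, FOSL1, JUN, NR4A1, NR4A3, ETS2 and KLF4. They were chosen by name, as the AP-1 subunits, NR4A nuclear receptors, ETS2 and KLF4 whose gene symbols label probes of the nCounter PanCancer Pathway Panel, and all 7 were found among its 770 genes. Total RNA of 2 human prostate cancer cell lines was measured in 12 samples, with 3 samples in each of 4 groups. The question was how gene expression differed between cells exposed to MS13, a diarylpentanoid analogue of curcumin, and unexposed cells of the same line.

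The groups were DU 145 cells given medium with the solvent DMSO alone (DU 145 control), DU 145 cells given 16 µM MS13 (DU 145 MS13), and the same pair of groups of PC-3 cells (PC-3 control and PC-3 MS13), all harvested after 24 h. Both are established lines of androgen-independent prostate carcinoma, and all groups were kept in medium with fetal bovine serum. DU 145 cells were grown in EMEM and PC-3 cells in F-12K, so the line and its medium cannot be told apart. Each line stands for 1 tumour, and 1 dose and 1 time point were measured.

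AP-1 is a dimer of a FOS family protein (FOS, FOSL1) and a JUN family protein, or of JUN proteins alone, and it binds short DNA elements in the control regions of its target genes. Immediate-early genes are transcribed within minutes of a growth factor or stress signal without new protein synthesis, mostly through the ERK, JNK and p38 kinase cascades, and their transcripts are usually short-lived. In epithelial tumour cells the family is best known for its part in proliferation, invasion and the response to stress.

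The assay hybridises each transcript to a capture probe and a colour-coded reporter probe and counts the colour codes with no amplification step, so that each raw value is a whole number of molecules seen for a gene. The samples held 437471 to 604629 codes over the panel genes. Counts were divided by a size factor from the geometric mean of 40 housekeeping genes, and are called normalised counts. The size factors were 0.931 to 1.06 in DU 145 control, 1.10 to 1.37 in DU 145 MS13, 0.910 to 0.992 in PC-3 control and 0.773 to 0.866 in PC-3 MS13 samples. The negative control probes set a background limit (their mean plus 2 SD) of 27.1, 20.2, 27.6 and 33.6 normalised counts in these groups. No difference beyond sampling noise was found between PC-3 control replicates 2 and 3 (chi-square of 1.04 per degree of freedom, where noise alone gives about 1), and they were counted as 1 sample, which gives n = 2 in PC-3 control and n = 3 in the other groups. PC-3 MS13 replicate 3 stood apart from the other two of its group (2.21 and 1.70 per degree of freedom, against 1.17 to 1.39 in the other pairs that differed), and without it the number of the 7 genes called in PC-3 cells was as with it. Apart from this replicate, most pairs differed by more than counting noise, but not by much. Single genes could scatter more, as JUN did in DU 145 control (coefficient of variation 14.7%, counting error 5.13 to 6.34%). The sources name both biological replicates and technical repeats, so the p-values measure only the spread between these samples. The test estimates this spread partly from all 684 tested genes together, so a very small p-value does not rest on the few replicates of its own gene alone. In all groups 4 of 4 epithelial markers lay above the limit, and of 7 leukocyte markers CD40 alone lay above it. The summed level of the leukocyte markers was 230.0 to 267 normalised counts in DU 145 control, 244 to 260.3 in DU 145 MS13, 144 to 180.3 in PC-3 control and 216 to 251 in PC-3 MS13 samples. The summed level of the epithelial markers was 3842 to 3996 normalised counts in DU 145 control and 2411 to 2630 in DU 145 MS13, and 12106 to 12326 in PC-3 control and 7513 to 7586 in PC-3 MS13 samples. Of 7 stromal markers 1 lay above the limit in DU 145 and 2 in PC-3 groups. Their summed level was 110 to 125 in DU 145 control and 75.3 to 101 in DU 145 MS13 samples. In PC-3 control it was 1047 to 1083 and in PC-3 MS13 samples 441 to 526, most of it from COL5A2 (means of 912 and 340). The part of these lists in the results was not tested.

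All 7 genes were among the 684 tested with edgeR's quasi-likelihood test. A gene is called higher or lower where its p, adjusted by Benjamini-Hochberg over all 684, is at most 0.05, and a differentially expressed gene (DEG) also differs at least 2-fold. In DU 145 cells FOS, JUN, KLF4, NR4A1 and ETS2 were called higher after MS13, NR4A3 was called lower and FOSL1 was not called. Of all tested genes 19.0% were called higher and 47.1% lower in this comparison, against 5 and 1 of the 7. The 7 genes were chosen with earlier results of these data known. Such shares and the medians below thus describe them and are no test of them as a set. FOS, JUN and KLF4 were DEGs that rose, as were 8.77% of all tested genes, and none of the 7 was among the 20.8% that were DEGs that fell. In PC-3 cells FOS, JUN, NR4A3, ETS2 and KLF4 were called higher, FOSL1 was called lower and NR4A1 was not called. The shares of all tested genes were 21.9% higher and 36.8% lower there. FOS, JUN and NR4A3 were DEGs that rose in PC-3 cells (6.58% of all tested genes) and FOSL1 was a DEG that fell (13.7%). In DU 145 cells the median log2 fold change was 0.57 over the 7 genes and -0.34 over all tested genes. The same medians were 0.88 and -0.09 in PC-3 cells. The split of all calls moved with the library scaling, from 130 higher and 322 lower to 226 and 203 with TMM in DU 145, and from 150 and 252 to 213 and 214 in PC-3 cells.

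**Figure D1:**
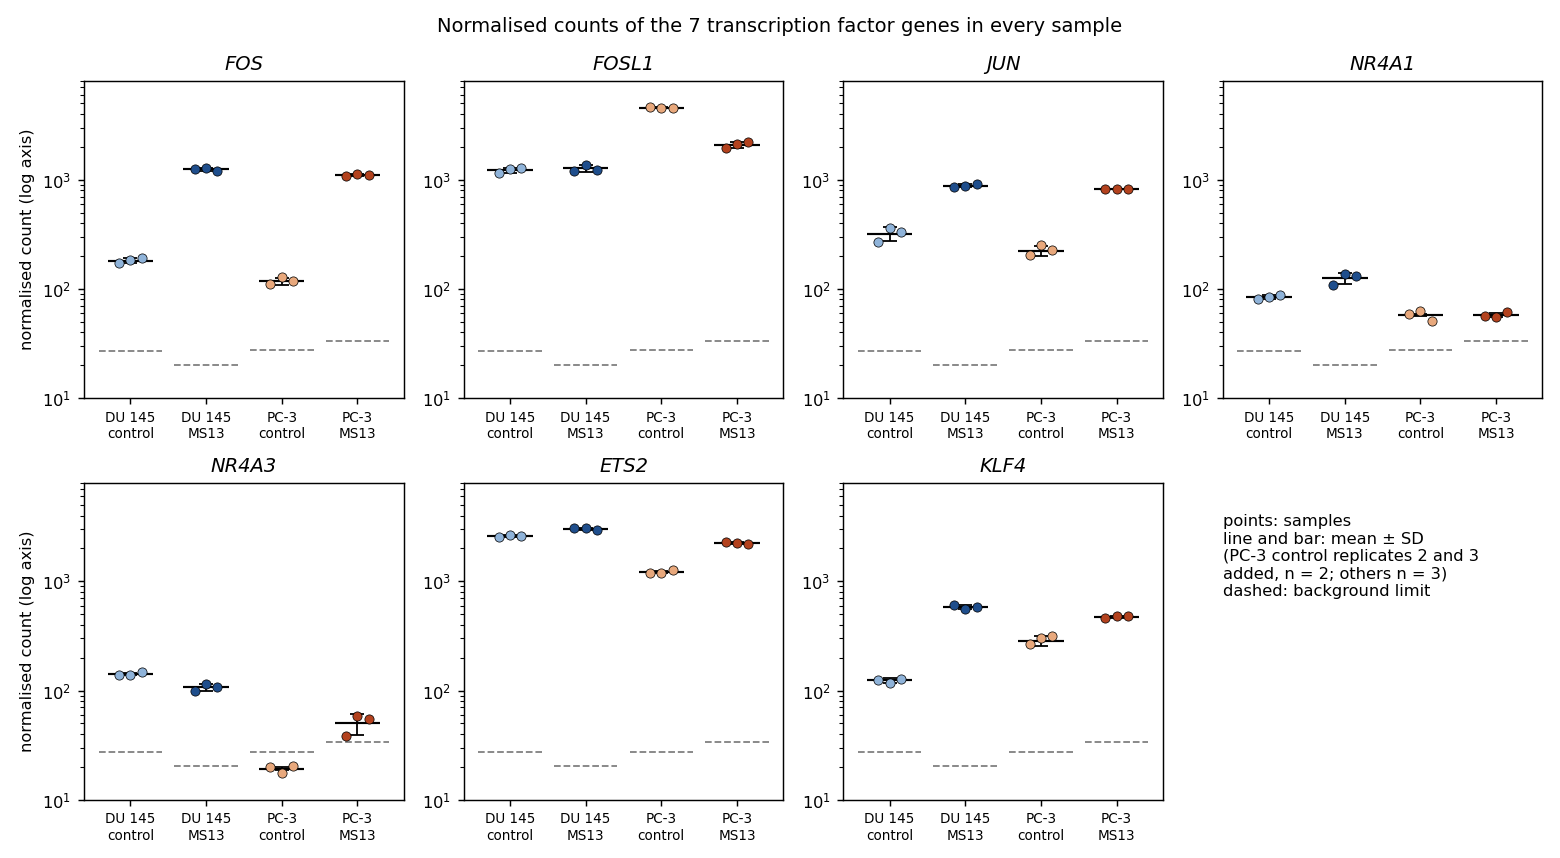
Normalised counts (log axis) of the 7 genes in each of the 12 samples, by line and treatment, with the group mean ± SD and the background limit (dashed). FOS and JUN were higher in all MS13 samples than in all controls of both lines, FOSL1 was lower in all PC-3 MS13 samples than in all PC-3 controls, and the PC-3 control samples of NR4A3 lay under the limit of 27.6.

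FOS, the subunit whose transcript is the textbook immediate-early response, had the largest rise of the 7 in both lines. Its normalised counts were 171, 183 and 191 in DU 145 control and 1251, 1291 and 1208 in DU 145 MS13 samples. In PC-3 cells they were 111, 128 and 118 in controls and 1086, 1131 and 1100 after MS13. All treated samples lay far above all controls, and within each treatment the 3 DU 145 samples lay above the 3 PC-3 samples. The means rose from 181 ± 10.02 to 1250 ± 41.7 (SD, n = 3 and 3) in DU 145 cells, a log2 fold change of 2.78 (SE 0.061, adjusted p = 1.83e-54). In PC-3 cells they rose from 117 ± 8.27 to 1106 ± 23.1 (SD, n = 2 and 3), a log2 fold change of 3.22 (SE 0.075, adjusted p = 1.60e-52). Among the 684 genes FOS ranked 12 by rise in DU 145 and 6 in PC-3 cells. The RNA came from whole cultures, where a larger share of responding cells and more transcript per cell cannot be told apart.

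JUN, the main dimer partner of FOS, rose less but in the same way in both lines. Its normalised counts were 268, 360 and 329 in DU 145 control and 853, 874 and 907 in DU 145 MS13 samples. In PC-3 cells controls held 206, 253 and 225 and MS13 samples 819, 823 and 814. The controls were the more scattered groups, with a coefficient of variation of 14.7% in DU 145 control against 0.517% in PC-3 MS13 samples, and no treated sample overlapped a control. The log2 fold change was 1.45 (SE 0.062, adjusted p = 2.65e-35) in DU 145 and 1.85 (SE 0.074, adjusted p = 1.26e-36) in PC-3 cells, which placed JUN at ranks 31 and 17 of 684 by rise.

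The stretches of 130 bases before the annotated starts of FOS and JUN are shown because these are the 2 genes that were DEGs in the same direction in both lines. They are taken from RefSeq (GRCh38.p14), which listed promoter windows for 6 of the 7 genes (not FOSL1), and are written in the direction of transcription. Capitals mark the letters TGACG (the core of the cAMP response element), TGACNTCA (the site form bound by AP-1 and CREB family dimers) and TATAAA (the TATA box), searched on both strands. The FOS stretch is chr14:75278698-75278827 on the plus strand and the JUN stretch is chr1:58784048-58784177 on the minus strand, both upstream of the transcript.
FOS: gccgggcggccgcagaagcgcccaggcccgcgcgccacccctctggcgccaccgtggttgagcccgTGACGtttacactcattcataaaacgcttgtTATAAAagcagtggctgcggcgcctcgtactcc
JUN: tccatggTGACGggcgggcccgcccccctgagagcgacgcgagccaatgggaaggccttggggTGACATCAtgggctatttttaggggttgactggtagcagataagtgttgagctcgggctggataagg
FOS held 1 TGACG from -64 to -60 and a TATA box from -33 to -28, counted from the gene start. JUN held TGACATCA from -67 to -60 and TGACG from -123 to -119, with a heat shock element core (GAANNTTC) further upstream from -150 to -143. In all 35116 promoter windows the 250 bases before the start held TGACG in 21.2%, TGACNTCA in 6.87%, GAANNTTC in 5.78% and TATAAA in 10.7%. The AP-1 site TGANTCA (6.57% of windows) and the CArG box bound by serum response factor (1.16%) were not in the 250 bases of any of the 8 windows of the 6 genes. These matches describe the letters of the windows only, and bases further upstream were not searched.

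FOSL1, which encodes the FOS family protein FRA-1, started high, fell in PC-3 cells and was not called in DU 145 cells. In DU 145 cells its normalised counts were 1152, 1251 and 1271 in controls and 1212, 1371 and 1215 after MS13, so that the groups overlapped. In PC-3 cells they were 4611, 4560 and 4520 in controls and 1945, 2102 and 2215 after MS13, without overlap. The PC-3 control samples held the highest FOSL1 counts of the study, and the treated PC-3 samples still lay above every DU 145 sample. In DU 145 cells the means were 1224 ± 63.6 and 1266 ± 91.0 (SD, n = 3 and 3) and the log2 difference was 0.04 (SE 0.047, 95% interval -0.05 to 0.14, adjusted p = 0.445). In PC-3 cells the mean fell from 4573 ± 53.1 to 2087 ± 135 (SD, n = 2 and 3), 2.19-fold, a log2 fold change of -1.13 (SE 0.044, adjusted p = 2.28e-37). With TMM this fall was -0.94, still called but under 2-fold. The DU 145 result depended on the library scaling, since FOSL1 was called higher there with TMM, which scales on the bulk of the tested genes (log2 0.47), by scaling to positive control probes, which count a spiked-in RNA (0.32), and with the 10 most stable housekeeping genes (0.14, adjusted p = 0.0210).

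NR4A1 and NR4A3 encode orphan nuclear receptors of 1 family, known as immediate-early genes that bind DNA without a ligand. Both gave low counts in PC-3 cells. NR4A1 counts were 80.6, 84.2 and 87.5 in DU 145 control and 109, 138 and 131 in DU 145 MS13 samples, all treated samples above all controls. In PC-3 cells they were 58.3, 62.9 and 50.4 in controls and 56.97, 55.5 and 60.8 after MS13, which overlapped. The log2 fold change was 0.57 (SE 0.114, adjusted p = 7.98e-06) in DU 145 cells. In PC-3 cells it was 0.01 (SE 0.167, 95% interval -0.31 to 0.34, adjusted p = 0.954), and its sign changed by scaling to positive control probes (-0.057), with background subtraction (-0.056) and without PC-3 control replicate 3 (-0.073) or PC-3 MS13 replicate 3 (-0.023).

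NR4A3 was the gene whose starting levels in the lines lay furthest apart relative to each other. Its counts were 140, 140 and 147 in DU 145 control and 98.4, 114 and 109 in DU 145 MS13 samples, with all treated samples below all controls. In PC-3 control samples the counts were 19.8, 17.5 and 20.2, all under the background limit of 27.6, and after MS13 they were 37.98, 58.9 and 54.4, all above the limit of 33.6 for that group. The groups of PC-3 cells did not overlap, and the treated ones remained under every DU 145 sample. In DU 145 cells the log2 fold change was -0.41 (SE 0.105, adjusted p = 3.79e-04), close to the median of -0.34 over all tested genes, and it was not called with TMM (0.015, adjusted p = 0.910) or with the positive control probes (-0.13, adjusted p = 0.289). In PC-3 cells the mean after MS13 was 50.4 ± 11.0 (SD, n = 3), at least 1.83-fold above the limit of the controls. The fitted log2 fold change was 1.39 (SE 0.223, adjusted p = 6.94e-08) and became 3.19 after background subtraction, so the call holds but the size is not fixed by these counts.

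The stretch before the NR4A3 start (chr9:99821755-99821884, plus strand, RefSeq, GRCh38.p14) is shown beside it because it held the most TGACG cores of the 6 genes, 4 in number, again in capitals and on either strand.
NR4A3: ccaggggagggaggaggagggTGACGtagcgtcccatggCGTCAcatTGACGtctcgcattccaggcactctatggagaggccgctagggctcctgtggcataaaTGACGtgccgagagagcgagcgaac
The cores began at -109, -91, -83 and -25. Both NR4A1 windows lacked TGACG. ETS2 and KLF4 held 2 each.

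ETS2, an ETS family factor phosphorylated by ERK, was abundant in all groups and rose in both lines. Its normalised counts were 2534, 2632 and 2627 in DU 145 control and 3066, 3085 and 2956 in DU 145 MS13 samples. In PC-3 cells they were 1205, 1193 and 1283 in controls and 2294, 2262 and 2217 after MS13. The 4 groups did not overlap, and the treated PC-3 cells did not reach the DU 145 controls. The log2 fold change was 0.22 (SE 0.036, adjusted p = 7.10e-08) in DU 145 and 0.88 (SE 0.046, adjusted p = 8.63e-30) in PC-3 cells. The small DU 145 rise was 0.65 under TMM and 0.50 when scaled to positive control probes.

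KLF4, a zinc finger factor known for slowing the cell cycle in epithelia, rose in both lines from different starting levels. Its counts were 126, 117 and 128 in DU 145 control and 603, 556 and 578 in DU 145 MS13 samples. In PC-3 cells they were 265, 304 and 314 in controls and 464, 482 and 482 after MS13. PC-3 controls thus lay above DU 145 controls, while treated PC-3 samples lay below treated DU 145 samples. The log2 fold change was 2.23 (SE 0.077, adjusted p = 3.28e-41) in DU 145 and 0.70 (SE 0.073, adjusted p = 7.67e-14) in PC-3 cells, at ranks 19 and 84 of 684 by rise.

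**Figure D2:**
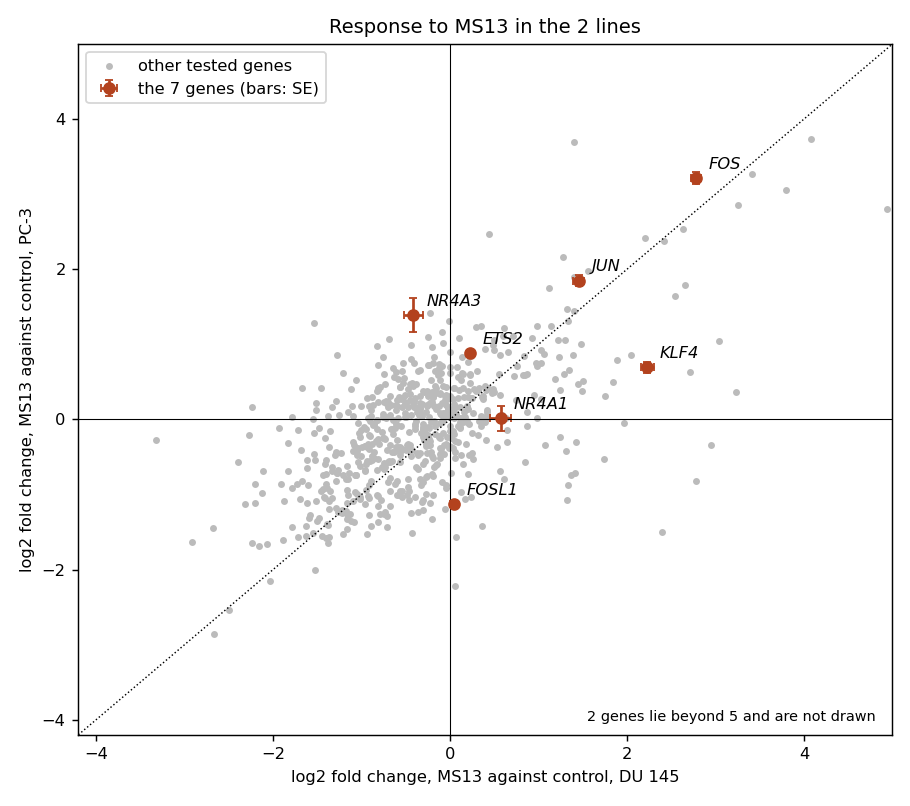
Log2 fold change after MS13 in DU 145 (horizontal) and PC-3 cells (vertical) for the 684 tested genes, with the 7 genes in colour and bars for their SE, and a dotted line where both responses are equal. FOS (2.78 and 3.22) and JUN (1.45 and 1.85) lie near that line at the upper right, KLF4 (2.23 and 0.70) to its right and FOSL1 (0.04 and -1.13) below it.

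The response of the lines was compared directly by the interaction term, the log2 fold change in PC-3 minus that in DU 145 cells, and it was called for all 7 genes. FOS, JUN, NR4A3 and ETS2 were higher in this comparison and FOSL1, NR4A1 and KLF4 lower, where 32.0% of all tested genes were called higher and 18.0% lower (219 and 123 genes, but 129 and 190 with TMM). The median over all tested genes was 0.22. FOS differed by 0.44 (SE 0.113, adjusted p = 6.99e-04) and JUN by 0.40 (SE 0.101, adjusted p = 6.19e-04), which is 0.22 and 0.17 above that median. They were not called with TMM (0.20 and 0.15, adjusted p = 0.142 and 0.209) or with the positive control probes (0.09 and 0.05, adjusted p = 0.581 and 0.753). KLF4 differed by -1.53 (SE 0.111, adjusted p = 6.67e-21) and FOSL1 by -1.17 (SE 0.065, adjusted p = 2.57e-27), and both were at least as large under each scaling tried. ETS2 differed by 0.66 (SE 0.058, adjusted p = 1.25e-16), and by 0.32 with the positive control probes. NR4A3 differed by 1.80 (SE 0.246, adjusted p = 2.10e-09) with the PC-3 control under the background limit, and by 3.62 after background subtraction. NR4A1 differed by -0.56 (SE 0.202, adjusted p = 0.0174), a call that was lost with DESeq2 (adjusted p = 0.0773) and without PC-3 control replicate 2 (adjusted p = 0.0671).

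**Figure D3:**
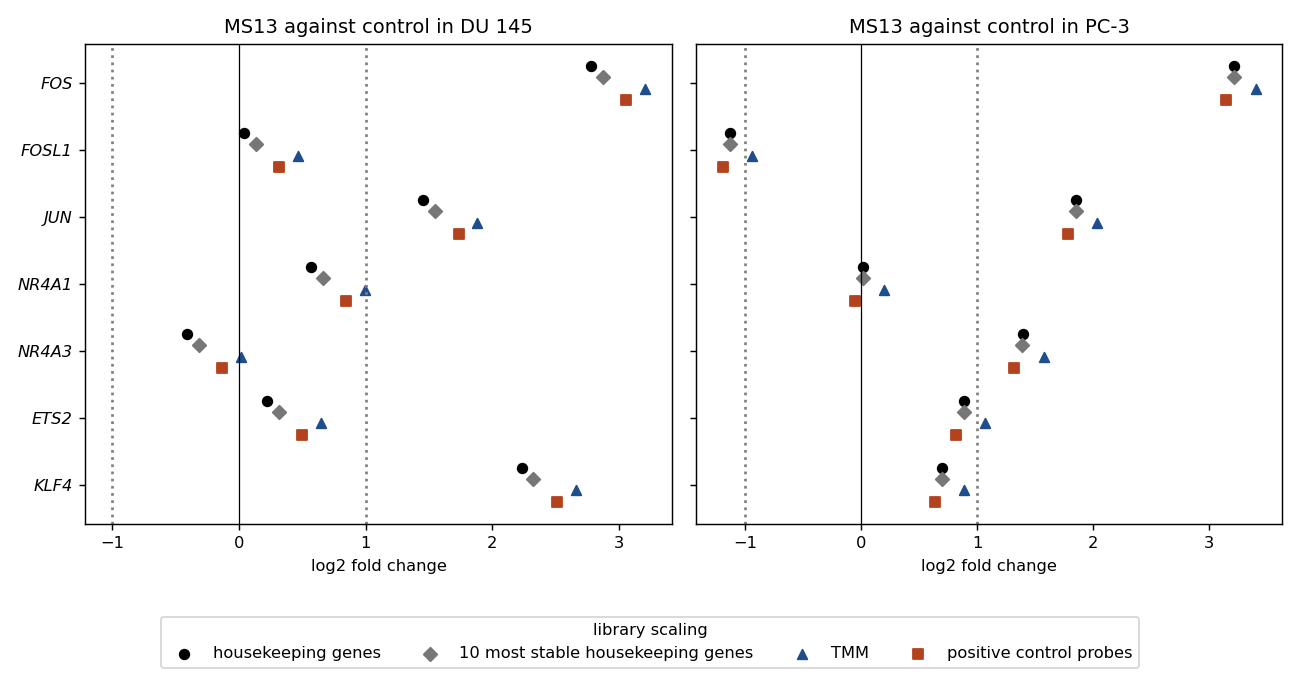
Log2 fold changes of the 7 genes after MS13 in DU 145 (left) and PC-3 cells (right) under 4 library scalings, with dotted lines at a 2-fold change. FOS stays between 2.78 and 3.21 in DU 145 and between 3.15 and 3.40 in PC-3 cells, whereas NR4A3 and FOSL1 in DU 145 lie near 0 and move from -0.41 to 0.02 and from 0.04 to 0.47.

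Before exposure the lines already differed in all 7 genes. FOSL1 and KLF4 were higher in PC-3 control than in DU 145 control (36.0% of all tested genes were higher) and FOS, JUN, NR4A1, NR4A3 and ETS2 were lower (31.0% were lower). FOSL1 was 3.73-fold higher (log2 1.90, SE 0.046, adjusted p = 7.16e-52) and KLF4 2.38-fold higher (log2 1.25, SE 0.093, adjusted p = 6.44e-21). ETS2 was 2.12-fold lower (log2 -1.09, SE 0.044, adjusted p = 2.42e-36), and NR4A3 was at least 5.15-fold lower, measured against the background limit. The log2 differences of FOS (-0.61), NR4A1 (-0.56) and JUN (-0.50) were smaller, and for these 3 genes no PC-3 control sample reached a DU 145 control sample.

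After exposure 1 of the 7 was higher in PC-3 than in DU 145 cells (48.4% of all tested genes were higher) and 5 were lower (25.6% were lower). With TMM the split of all calls went from 331 higher and 175 lower to 222 and 228. These comparisons use the same samples as those above. FOSL1 was 1.65-fold higher in PC-3 MS13 than in DU 145 MS13 samples (log2 0.72, SE 0.045, adjusted p = 4.66e-25). NR4A1 (log2 -1.12) and NR4A3 (-1.08) were over 2-fold lower, and ETS2 (-0.43), KLF4 (-0.29) and FOS (-0.17) were lower by less. JUN differed by -0.10 (SE 0.053, 95% interval -0.21 to 0.00, adjusted p = 0.0802) and was not called, although its 3 PC-3 samples lay under its 3 DU 145 samples, and with TMM (-0.40) or the positive control probes (-0.53) it was called lower.

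Ratios of 2 raw counts of the same sample do not depend on the library scaling. Probes differ in efficiency, so only the change of a ratio between groups is read, and the exact permutation tests (two-sided) cannot go below p = 0.1 in DU 145 (3 against 3 samples) or p = 0.2 in PC-3 cells (2 against 3). All 8 comparisons, 4 ratios in 2 lines, gave this smallest value, so none can pass a threshold of 0.05. FOS over JUN went from a geometric mean of 0.573 to 1.42 in DU 145 and from 0.527 to 1.35 in PC-3 cells, a 2.48-fold and a 2.56-fold rise. FOSL1 over FOS fell 6.67-fold in DU 145 cells, from 6.75 to 1.01, and 20.8-fold in PC-3 cells, from 39.2 to 1.89. FOSL1 over JUN fell 2.69-fold in DU 145 (3.87 to 1.44) and 8.11-fold in PC-3 cells (20.7 to 2.55). In both lines, then, the FOSL1 count was smaller relative to the FOS and JUN counts in every treated sample than in any control. In DU 145 cells FOSL1 itself was not called (log2 0.04, adjusted p = 0.445), while FOS and JUN were called higher. NR4A1 over NR4A3 went from 0.592 to 1.17 in DU 145 cells and from 2.97 to 1.16 in PC-3 cells, where the control NR4A3 counts were at background.

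**Figure D4:**
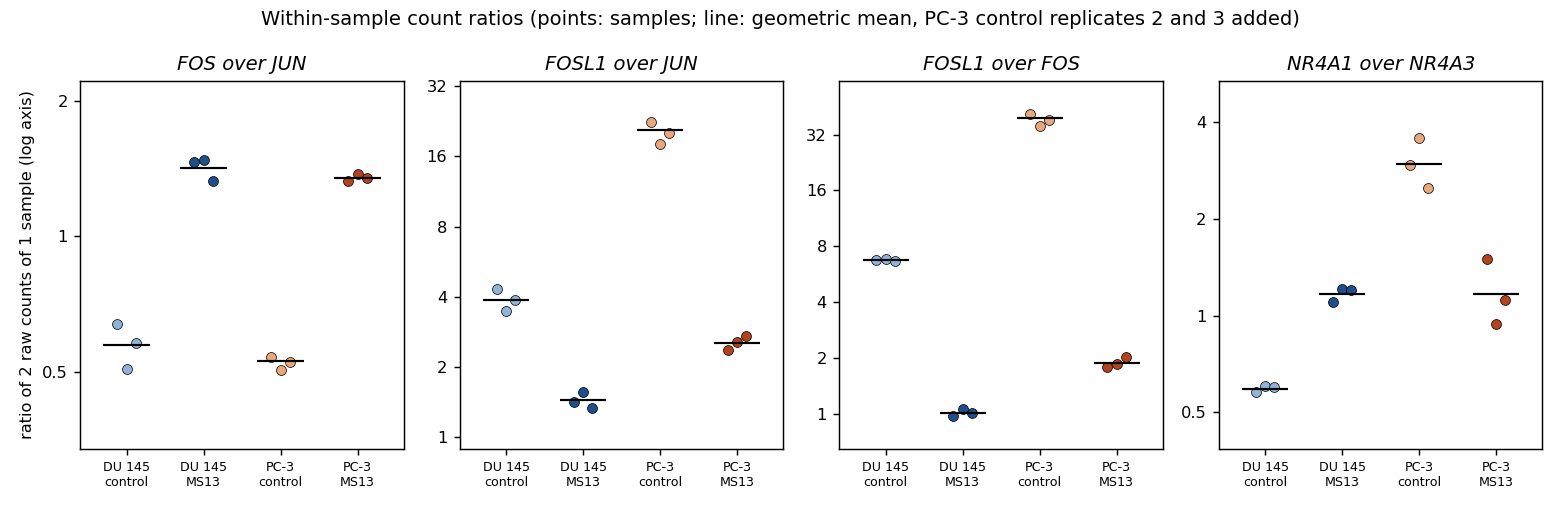
Ratios of 2 raw counts within each sample (log axis, 1 panel per ratio), with the geometric mean of each group as a line. FOS over JUN rises and FOSL1 over JUN and over FOS falls in both lines, and NR4A1 over NR4A3 reaches 1.17 and 1.16 after MS13 from 0.592 in DU 145 and 2.97 in PC-3 controls.

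Other genes of the pathway were counted in lists made from general knowledge, without the 7. Of 15 tested genes of the ERK cascade 4 were called higher and 9 lower in DU 145 and 6 higher and 8 lower in PC-3 cells, with median log2 fold changes of -0.43 and -0.25. Over all tested genes 19.0% were higher and 47.1% lower in DU 145 cells (median -0.34), while PC-3 cells had 21.9% higher and 36.8% lower (median -0.09). EGFR, the epidermal growth factor receptor, fell from 1567 ± 46.6 to 648 ± 20.5 (SD, n = 3 and 3) in DU 145 and from 1687 ± 76.1 to 1019 ± 12.7 (SD, n = 2 and 3) in PC-3 cells. ERBB2, a receptor of the same family, fell as well (log2 -1.88 and -1.09). SHC1, the adaptor that links such receptors to RAS, fell in DU 145 (log2 -0.81) and rose in PC-3 cells (0.42), with an interaction of 1.23 (SE 0.058, adjusted p = 1.77e-31).

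Of 16 tested genes of the JNK and p38 cascade 7 were higher and 8 lower in DU 145 (19.0% and 47.1% of all tested genes) and 6 higher and 7 lower in PC-3 cells (21.9% and 36.8%), with medians of -0.13 and 0.01 against -0.34 and -0.09 over all tested genes. GADD45A and GADD45B, stress-inducible proteins that bind upstream kinases of this cascade, rose in both lines. The log2 fold changes were 3.41 and 3.27 for GADD45A, and 1.40 and 3.69 for GADD45B, in DU 145 and PC-3 cells. MAPK9, which encodes the kinase JNK2 that phosphorylates JUN, fell (log2 -1.29 and -0.82).

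Of 4 other tested immediate-early and ETS family factors none was higher and 2 were lower in DU 145, and 1 was higher and 2 were lower in PC-3 cells (medians -0.24 and -0.56). In DU 145 cells 19.0% of all tested genes were higher and 47.1% lower, and PC-3 cells had 21.9% higher and 36.8% lower, so 2 of 4 lower is near the background. ETV4, an ETS factor, fell in both lines (log2 -0.32, adjusted p = 0.0406, and -1.10). ETV1, a close relative, fell from 1081 ± 28.8 to 458 ± 17.6 (SD, n = 2 and 3) in PC-3 cells and lay under the background limit in both DU 145 groups. MYC, an early-response growth regulator, was lower in DU 145 (log2 -0.17, adjusted p = 4.68e-04) and higher in PC-3 cells (0.45, adjusted p = 4.56e-15). The DU 145 median over all tested genes was -0.34 with housekeeping scaling and 0.08 with TMM. The direction of small DU 145 changes such as those of MYC and ETV4 may thus depend on the library scaling, and their values under other scalings are not given.

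Of 16 tested genes described as AP-1 targets 3 were higher and 8 lower in DU 145 (19.0% and 47.1% of all tested genes) and 5 higher and 7 lower in PC-3 cells (21.9% and 36.8%). Their medians were -0.31 and 0.04, against -0.34 and -0.09 over all tested genes. PLAU, the urokinase protease, fell from 9000.3 ± 284 to 2203 ± 77.7 (SD, n = 3 and 3) in DU 145 and from 20060.1 ± 14.8 to 4532 ± 93.3 (SD, n = 2 and 3) in PC-3 cells. PLAT, the tissue plasminogen activator, fell in PC-3 cells alone among the calls (log2 -2.21), and its DU 145 means were 32.9 ± 7.997 and 34.9 ± 5.04 (SD, n = 3 and 3). These means lay not far above the background limits of 27.1 and 20.2, so a fall in DU 145 cells could hardly be measured. CDKN1A, the cyclin-dependent kinase inhibitor p21, rose in both lines (log2 2.63 and 2.53). These genes were named for their small adjusted p, and the list did not move in 1 direction. MMP3, another protease, and IL11 were also called higher in DU 145 and PC-3 cells (log2 4.94 and 2.81, and 1.40 and 1.90). Their normalised counts are not given here.

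The genes most like each of the 7 were taken by Pearson correlation of log2 normalised counts over the 11 samples, as a description, among 430 tested genes with a mean count of at least 50. The samples share their 4 groups, so r mostly reflects the order of the group levels. FOS and JUN were most like each other (r = 0.992), followed by DDIT3, the stress factor CHOP, for FOS (r = 0.990) and CYLD, a deubiquitinase, for JUN (r = 0.982). FOSL1 was most like the ephrin receptor gene EPHA2 (r = 0.988) and the histone gene H2AFX (r = 0.970). KLF4 was most like DUSP5, a phosphatase that acts on ERK (r = 0.968), and ETS2 was most like DAXX (r = 0.983) and NUMBL (r = 0.976). NR4A1 was most like FGFR3 (r = 0.972) and SOS2 (r = 0.969), and NR4A3 like FZD7 (r = 0.973) and GNAQ (r = 0.954).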

How the data were processed

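For each of 12 samples the authors deposited raw counts per probe, control probes included, without background subtraction or normalisation. The nSolver normalisation by housekeeping genes that the study's methods name is not in them. The 7 genes and all lists were chosen with earlier results of these data known. The counts were fitted with edgeR 4.0.16 under R 4.3.3 (glmQLFit, glmQLFTest) in 1 fit of 4 groups and 11 samples, scaled by the geometric mean of 40 housekeeping genes listed from general knowledge of the panel. Genes with a mean of at least 10 were tested, housekeeping genes and control probes left out, with Benjamini-Hochberg adjustment. The code was tested on simulated data. Per list up to 3 genes with the smallest adjusted p and per member the 2 most alike genes were named, except that some items are not reported here. Alternatives were DESeq2 1.42.0, TMM, positive control probes, 10 stable housekeeping genes, no filter, a minimum mean of 50, background subtraction, 12 separate samples, the replicate number as a block, each line alone and each replicate left out. Relative counting error grows as counts fall. Genes are named by the symbols of the panel, and probe sequences were not used here.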

Additional observations from a re-analysis of the deposited data

Results flagged for a closer look

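All 7 genes are listed here because the response to MS13 differed between the lines by the interaction term of the edgeR fit (PC-3 minus DU 145, log2, adjusted over 684 genes, 11 samples). The values were 1.80 for NR4A3, 0.66 for ETS2, 0.44 for FOS and 0.40 for JUN, and -1.53 for KLF4, -1.17 for FOSL1 and -0.56 for NR4A1. Of all tested genes 32.0% were called higher and 18.0% lower by this term. FOS and JUN were not called with TMM (adjusted p = 0.142 and 0.209) or with positive control probe scaling (adjusted p = 0.581 and 0.753). The NR4A1 call was lost with DESeq2 (adjusted p = 0.0773) and without PC-3 control replicate 2 (adjusted p = 0.0671). With housekeeping scaling all NR4A3 values after MS13 lay below the controls in DU 145 cells and above them in PC-3 cells. The DU 145 direction turned with TMM (log2 0.015, adjusted p = 0.910) and was not called with positive control probe scaling (-0.13, adjusted p = 0.289), its raw counts overlapped, and the PC-3 controls were under the background limit. KLF4 crossed over, with PC-3 above DU 145 samples before exposure and below them after it.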

How the results depend on the processing

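Over the 22 other settings, 731 of 749 log2 fold changes of single genes kept their direction and their side of the threshold, 7 were no longer called, 5 became called and 6 changed sign. The library scaling moved the most. The median over all tested genes in DU 145 cells was -0.34 with housekeeping genes, 0.08 under TMM and -0.07 under positive control probe scaling (130 higher and 322 lower, 226 and 203, and 181 and 226), and in PC-3 cells -0.09, 0.10 and -0.16 (150 and 252, 213 and 214, and 140 and 269). Under TMM and under positive control probe scaling the genes called lower in DU 145 cells went from 1 to 0, and those with a higher response in PC-3 cells from 4 to 2. With TMM the count of falls of at least 2-fold in PC-3 cells went from 1 to 0 (FOSL1, log2 -0.94). That of rises of at least 2-fold went from 3 to 4 (ETS2, log2 1.07). The number called higher in DU 145 cells went from 5 to 6 with TMM, positive control probes or the 10 most stable housekeeping genes (FOSL1). The sign changed for NR4A3 in DU 145 cells with TMM (0.015), for FOSL1 in DU 145 cells without DU 145 MS13 replicate 2 (-0.015, range over the replicates left out -0.015 to 0.073), and for NR4A1 in PC-3 cells by positive control probe scaling (-0.057), background subtraction (-0.056), and leaving out PC-3 control replicate 3 (-0.073) or PC-3 MS13 replicate 3 (-0.023, range -0.073 to 0.090). The cause was not tested. Samples of the same replicate number did not deviate together (r from -0.20 to 0.04, against -0.15 to 0.17 for unlike numbers). With 3 samples per group, most of them not far above counting noise, this cannot exclude a pairing, and the main fit treated the samples as unpaired. With the replicate block the counts of the 7 genes stayed at 5 higher and 1 lower in each line. NR4A3 held 17 to 20 raw counts in PC-3 controls, where the negative probes averaged 14.5 to 15.9.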
